A study of Homo sapiens with 6 samples.

Results

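Messenger RNA of 10 aldehyde dehydrogenase (ALDH) genes was measured by RNA-seq in colorectal cancer cells labelled wild type and knockout for METTL3, the methyltransferase that places N6-methyladenosine (m6A) on mRNA. The 10 genes (ALDH1A1, ALDH1A3, ALDH1B1, ALDH2, ALDH3A1, ALDH3A2, ALDH3B1, ALDH7A1, ALDH9A1 and ALDH18A1) were found by symbol among the 56638 symbols of the count tables, and they are 10 of the 19 ALDH genes counted there. They were chosen by their values in the same METTL3-KO against WT comparison, which had been seen when the list was drawn up. The rule is a list of names with no threshold, so no values lie just inside or outside it. The differences between METTL3-KO and WT are therefore given for all 19 ALDH genes as a description, with no p-value. Where an ALDH gene is said to meet the rule of the fit over all genes, this places it beside the share of all genes that met it and is not evidence for the gene. All 10 passed the filter on low counts.

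The cells were HCT116, a human colorectal carcinoma line, grown in McCoy's 5a medium with 10% serum and taken at passage 16 to 19. The WT group held 3 samples of wild-type genotype, and the METTL3-KO group held 3 samples that the labels describe as METTL3 knockout by CRISPR/Cas9. The names of the deposited tables carry SiM3 for the METTL3-KO samples and NC for the WT samples, which no source used here explains, so whether these libraries came from the edited cells or from another treatment against METTL3 could not be settled. By the study's methods the edited cells were a single monoclonal line, made with a lentiviral vector carrying Cas9 and a guide RNA and selected with puromycin, so an effect of the clone and an effect of METTL3 cannot be told apart. Nothing in the labels says that the samples of a group were separate cultures, so p-values measure only the spread between these samples, which may be technical.

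Aldehyde dehydrogenases oxidise aldehydes to carboxylic acids with NAD+ or NADP+, and each member has its own range of substrates: retinal, acetaldehyde, fatty aldehydes from lipids, or semialdehydes from amino acid and polyamine breakdown. In the intestine, high ALDH1A1 activity is widely used as a marker of stem and progenitor cells. ALDH18A1 belongs to the family by sequence but works in the opposite direction, reducing glutamate on the way to proline and ornithine.

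METTL3 itself, which checks the labels, had 841, 682 and 623 read counts in WT and 219, 169 and 162 read counts in METTL3-KO. As CPM, the counts scaled to library size with TMM factors, METTL3 stood at 30.0 ± 0.724 (SD, n = 3) in WT and 7.28 ± 0.4 (SD, n = 3) in METTL3-KO. METTL3 mRNA was lower in METTL3-KO, at 24.3% of the WT level (log2 fold change -2.04, SE 0.0906, edgeR quasi-likelihood adjusted p = 1.59e-07), and not absent.

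Libraries held 20936091 to 30142144 gene counts. Replicate 3 of each group stood apart from the other two, with a chi-square per gene of 8.32 to 23.1 for pairs that include it and of 2.34 and 2.58 for the pairs that do not. Deviations from the group mean ran with transcript length in every library. Spearman correlations across 9424 genes were 0.665 for WT replicate 3 and -0.604 for METTL3-KO replicate 3. Replicates 1 and 2 had the opposite sign to replicate 3 of their group, at -0.602 and -0.55 in WT and 0.504 and 0.419 in METTL3-KO. Deviations from a shared mean offset each other, so this trend alone does not single out replicate 3. All 7 epithelial markers were expressed, and their summed level was 5795 to 7184 CPM in WT and 8290 to 9245 CPM in METTL3-KO, with VIL1, KRT19, KRT8 and CDH1 higher. The 5 fibroblast markers summed to 4.92 to 6.74 CPM in WT and 8.86 to 9.86 CPM in METTL3-KO, with COL1A2 at 0 and LUM higher (0.393 CPM in WT and 2.23 CPM in METTL3-KO, log2 fold change 2.46, edgeR adjusted p = 8.12e-05), and the 6 leukocyte and endothelial markers to 5.30 to 6.72 CPM and 6.40 to 10.2 CPM with MS4A1 and PECAM1 at 0. Most of the fibroblast sum was COL1A1, with means of 5.42 CPM in WT and 6.99 CPM in METTL3-KO. Most of the leukocyte and endothelial sum was CD14, at 5.85 and 8.03 CPM, while PTPRC, CD3E and VWF had at most 4 counts a sample. The part of these marker shifts in the ALDH values was not tested, and in bulk RNA fewer cells of a type and less RNA per cell cannot be told apart.

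ALDH9A1 was lower in METTL3-KO by far more than any other member, and by about as much as METTL3 itself. ALDH1A1, ALDH1A3, ALDH7A1 and ALDH3A2 were lower by smaller amounts, ALDH3B1 was higher, and ALDH1B1, ALDH2, ALDH3A1 and ALDH18A1 did not pass the rule of adjusted p under 0.05. Of the 10 members, 5 were thus on the lower side of the rule, which 13.2% of the 22452 genes tested met, and 1 was on the higher side, which 13.3% met. Among the 12832 tested genes that reached 1 or more in mean log2 CPM, as all 10 members did, these shares were 20.2% lower and 19.1% higher. All METTL3-KO samples lay below all WT samples for 5 members, as for 20.7% of all genes tested, and above them for 3 members, as for 20.2% of all genes tested. The median log2 fold change was -0.28 over the 10 members and -0.02 over all genes tested, and since the comparison chose the members nothing about the family is read from these counts.

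**Figure D1:**
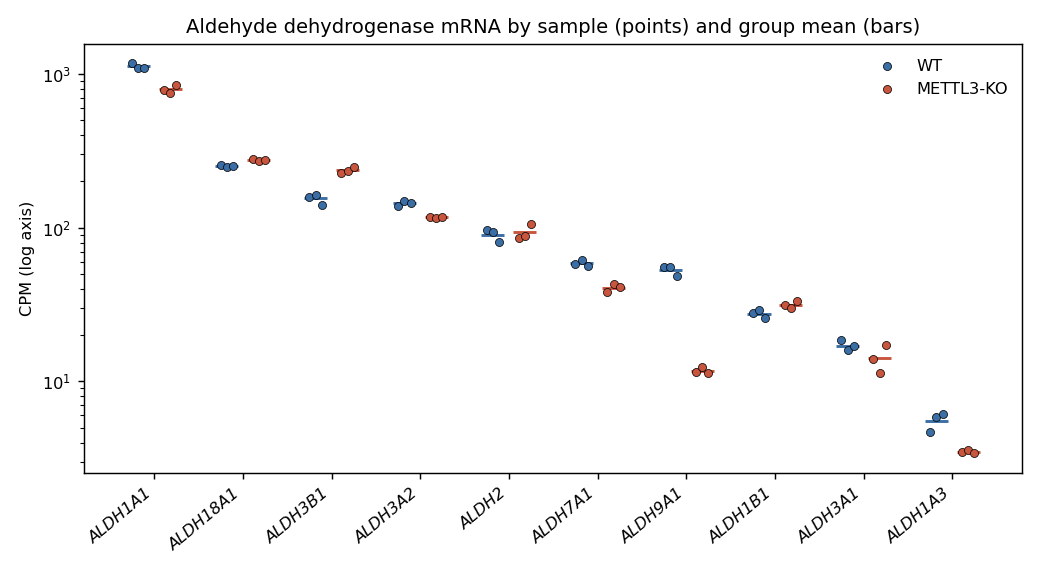
CPM (log axis) of the 10 ALDH genes in each WT and METTL3-KO sample (points, n = 3 per group) with the group mean (bars), ordered by the WT mean. ALDH9A1 shows the widest gap, from 48.7 to 55.7 CPM in WT down to 11.4 to 12.4 CPM in METTL3-KO, while the points of ALDH2 and ALDH3A1 overlap between groups.

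ALDH9A1 (GRCh37 chromosome 1, 165631453 to 165667799, minus strand) encodes the enzyme that oxidises trimethylaminobutyraldehyde in carnitine synthesis and also accepts gamma-aminobutyraldehyde from polyamine breakdown. It had 1529, 1253 and 1039 counts in WT and 347, 272 and 267 counts in METTL3-KO, that is 55.7, 55.4 and 48.7 CPM against 11.5, 12.4 and 11.4 CPM. No METTL3-KO sample came near the lowest WT sample. The mean was 53.3 ± 3.95 CPM (SD, n = 3) in WT and 11.7 ± 0.550 CPM (SD, n = 3) in METTL3-KO, 22% of WT, with a log2 fold change of -2.18 (SE 0.0901). Of those 12832 better expressed genes, 5 had a lower log2 fold change. Its log2 fold change was -2.23 with replicate 3 of both groups left out, and -2.24 to -2.14 over the 14 alternatives tried.

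The gene whose CPM profile over the 6 samples was most like that of ALDH9A1 was METTL3, at a Euclidean distance of 0.207 between the centred log2 CPM values, out of 12831 genes compared. It was followed by RASL11A (distance 0.295, log2 fold change -2.35), CLDN2 (0.392, -2.46), HLA-DMB (0.450, -2.53) and SMPD1 (0.451, -1.90). All 5 were lower in every METTL3-KO sample than in every WT sample. The measure ranks genes on these 6 libraries alone and takes in the group difference by which ALDH9A1 was chosen.

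Of the retinal-oxidising ALDH1A genes, ALDH1A1 and ALDH1A3 were lower in METTL3-KO, while ALDH1A2, at 5 to 12 counts a sample, had a log2 fold change of 0.57 with overlapping groups. ALDH1A1 (chromosome 9, 75515587 to 75695358, minus strand), a cytosolic enzyme that turns retinal into retinoic acid, stood at 1171, 1102 and 1088 CPM in WT and 785, 749 and 849 CPM in METTL3-KO. The groups did not overlap, and the METTL3-KO mean of 794 ± 50.5 CPM (SD, n = 3) was 70.9% of the WT mean of 1120 ± 44.5 CPM (SD, n = 3), a log2 fold change of -0.50 (SE 0.0709). ALDH1A3 (chromosome 15, 101417919 to 101456831, plus strand), which has the same reaction, was weakly expressed. Its values were 4.66, 5.84 and 6.10 CPM in WT and 3.45, 3.59 and 3.40 CPM in METTL3-KO, also without overlap, with a log2 fold change of -0.66 (SE 0.144). Of its exon bases, 32.15% overlap an antisense gene, ALDH1A3-AS1, and since use of strand in counting is not stated in the sources used here, reads of the pair may not be separated.

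The mitochondrial members ALDH1B1 and ALDH2 did not pass the rule. ALDH2 (chromosome 12, 112204691 to 112255336, plus strand), the main enzyme that clears acetaldehyde formed from ethanol, had 96.4, 93.3 and 80.6 CPM in WT and 85.9, 88.8 and 105 CPM in METTL3-KO. The lowest WT value and the highest METTL3-KO value were those of replicate 3. Its log2 fold change was 0.05 (SE 0.0955), and with replicate 3 of both groups left out it was -0.12 and on the lower side of the rule. It was -0.03 without WT replicate 3 and -0.04 without METTL3-KO replicate 3. With all samples and the length and GC correction it was -0.01, so no direction is read from it. ALDH1B1 (chromosome 9, 38392699 to 38398658, plus strand), which oxidises acetaldehyde and other short aldehydes, had 27.7, 29.3 and 25.8 CPM in WT and 31.4, 30.0 and 33.4 CPM in METTL3-KO. The groups lay close without overlap, with a log2 fold change of 0.19 (SE 0.0845).

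In the ALDH3 group, which handles fatty and aromatic aldehydes, members went in both directions. ALDH3B1 (chromosome 11, 67776048 to 67796749, plus strand), a membrane-associated enzyme for aldehydes from lipid peroxidation, had 159, 164 and 140 CPM in WT and 228, 233 and 247 CPM in METTL3-KO. Every METTL3-KO sample was above every WT sample, and the METTL3-KO mean was 153% of WT (log2 fold change 0.61, SE 0.0790, and 0.51 with replicate 3 of both groups left out). ALDH3A2 (chromosome 17, 19551449 to 19589073, plus strand), the fatty aldehyde dehydrogenase, had 139, 149 and 144 CPM in WT and 117, 116 and 117 CPM in METTL3-KO. Its METTL3-KO samples lay together below the WT samples, at 80.8% of the WT mean (log2 fold change -0.31, SE 0.0669).

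ALDH3A1 (chromosome 17, 19641297 to 19652256, minus strand), which lies next to ALDH3A2 and is known as a major soluble protein of the cornea, had 18.5, 15.9 and 16.9 CPM in WT and 14.0, 11.4 and 17.3 CPM in METTL3-KO. METTL3-KO replicate 3 was within the WT range and the other METTL3-KO samples were below it. The log2 fold change was -0.26 (SE 0.135) with all samples, -0.42 without METTL3-KO replicate 3 and -0.43 without replicate 3 of both groups, and in these last fits it was on the lower side of the rule.

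The remaining members work in amino acid metabolism. ALDH7A1 (chromosome 5, 125866892 to 125931054, minus strand), which oxidises aminoadipic semialdehyde in lysine breakdown and also betaine aldehyde, had 57.9, 61.6 and 56.3 CPM in WT and 38.1, 42.7 and 41.3 CPM in METTL3-KO. The groups were well apart, with METTL3-KO at 69.4% of WT (log2 fold change -0.53, SE 0.0784). Its pseudogene ALDH7A1P1 had 6.80 ± 0.857 CPM (SD, n = 3) in WT and 5.18 ± 0.522 CPM (SD, n = 3) in METTL3-KO (log2 fold change -0.40, SE 0.137), and reads may be split between the pair. ALDH18A1 (chromosome 10, 97365698 to 97416468, minus strand), which makes pyrroline carboxylate from glutamate, had 254, 248 and 253 CPM in WT and 278, 273 and 274 CPM in METTL3-KO. These 6 values varied little and did not overlap, with METTL3-KO at 109% of WT (log2 fold change 0.13, SE 0.0636).

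**Figure D2:**
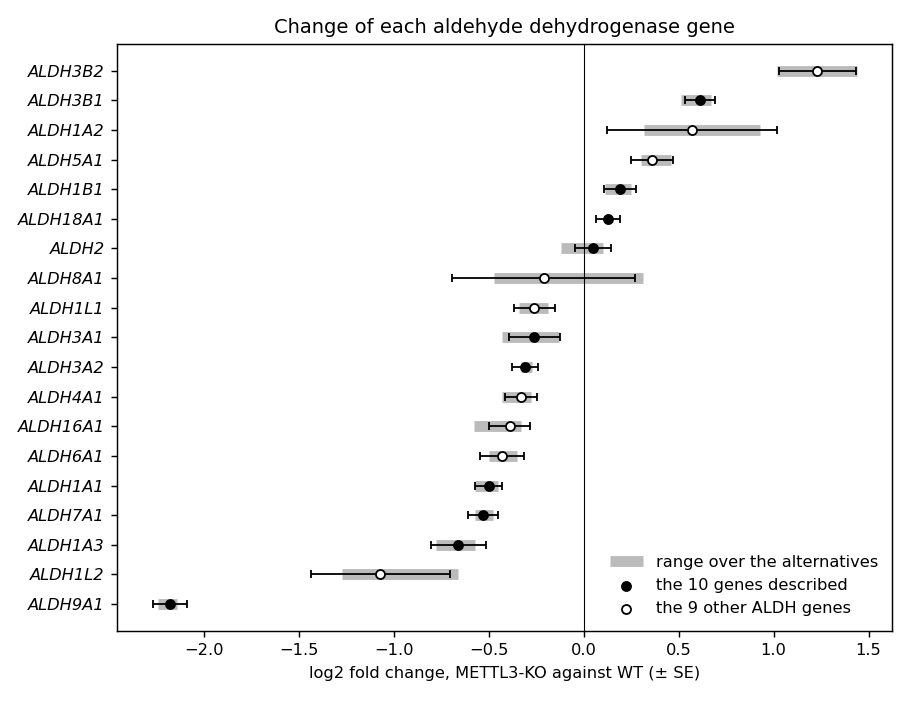
Log2 fold change of METTL3-KO against WT for the 19 ALDH genes (points with SE, n = 3 per group; filled for the 10 members, open for the others) and the range over the alternatives tried (grey). ALDH9A1 at -2.18 is the lowest and ALDH3B2 at 1.23 the highest, and the grey range crosses 0 for ALDH2 and ALDH8A1.

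The 9 other ALDH genes lay in both directions as well. On the lower side of the rule were 4, namely ALDH1L2, ALDH6A1, ALDH16A1 and ALDH4A1, and on the higher side were 2, ALDH3B2 and ALDH5A1. Of all genes tested, 13.2% were lower and 13.3% higher, and nothing about the family is read from these counts. The 4 lower genes became 1 with the replicate number as a block, 2 without WT replicate 1 or WT replicate 2, and 0 without METTL3-KO replicate 1 or METTL3-KO replicate 2. Of the 14 alternatives, ALDH3B2 met the rule in 14, ALDH6A1 in 12, ALDH16A1 and ALDH4A1 in 9, ALDH5A1 in 8 and ALDH1L2 in 6. ALDH3B2, the nearest relative of ALDH3B1, was weakly expressed at 3.57, 3.19 and 2.95 CPM in WT and stood at 8.33, 5.14 and 9.35 CPM in METTL3-KO (log2 fold change 1.23, SE 0.203). Both ALDH3B genes thus lay higher in every METTL3-KO sample than in any WT sample, as did 20.2% of all genes tested.

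ALDH6A1, the methylmalonate semialdehyde dehydrogenase of valine breakdown, was at 12.3 ± 1.01 CPM in WT and 9.14 ± 0.959 CPM in METTL3-KO (SD, n = 3 each; log2 fold change -0.43, SE 0.114). ALDH16A1, an inactive relative, was at 41.3 ± 5.06 and 31.6 ± 3.17 CPM (SD, n = 3 each; log2 fold change -0.39, SE 0.106), and ALDH4A1, which completes proline breakdown, at 43.8 ± 3.96 and 34.8 ± 1.11 CPM (SD, n = 3 each; log2 fold change -0.33, SE 0.0857). ALDH4A1 shares 41.77% of its exon bases with another counted gene, RP13-279N23.2, and is uncertain for that reason. ALDH5A1, the succinic semialdehyde dehydrogenase of GABA breakdown, was at 7.53 ± 0.756 and 9.67 ± 0.398 CPM (SD, n = 3 each; log2 fold change 0.36, SE 0.112). Of the folate-linked ALDH1L genes, ALDH1L2 had only 9 to 34 counts a sample (log2 fold change -1.07, SE 0.365) and ALDH1L1 had overlapping groups (log2 fold change -0.26, SE 0.109). ALDH1A2 had 5 to 12 counts a sample (log2 fold change 0.57, SE 0.448) and ALDH8A1 4 to 13 counts a sample (log2 fold change -0.21, SE 0.481), and the groups overlapped for both.

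Levels were compared between genes on CPM per kb of exons. ALDH1A1 led the family in WT cells with 395 ± 15.7 CPM per kb (SD, n = 3), followed by ALDH18A1 with 66.9 ± 0.869, ALDH3B1 with 23.3 ± 1.96 and ALDH9A1 with 17.7 ± 1.31 CPM per kb. These first 4 had ranges over the WT samples that did not overlap with their neighbours. ALDH4A1 followed with 12.1 ± 1.09 CPM per kb, and then ALDH3A2, ALDH2, ALDH16A1 and ALDH1B1, at 9.40, 9.27, 9.01 and 8.86 CPM per kb, could not be told apart beyond their spread. ALDH3A1 with 4.4, ALDH7A1 with 3.27 and ALDH6A1 with 1.84 CPM per kb each stood clear of the next gene, and ALDH1L1, ALDH1A3, ALDH5A1 and ALDH3B2 overlapped between 1.05 and 0.897 CPM per kb. ALDH8A1 and ALDH1L2 overlapped at 0.123 and 0.111 CPM per kb, and ALDH1A2 was the lowest at 0.0330 CPM per kb.

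In METTL3-KO cells the order kept the same first 3 genes and ALDH9A1 moved from rank 4 to rank 9, at 3.91 ± 0.183 CPM per kb (SD, n = 3). The order depends on the length used, also among the first 3 genes. By canonical mRNA length, METTL3-KO had 84.0 ± 3.47 CPM per kb for ALDH3B1 and 82.0 ± 0.731 CPM per kb for ALDH18A1 (SD, n = 3 each). By the longest transcript, ALDH3A2 had rank 3 and ALDH3B1 rank 4 in WT. With the length of the canonical mRNA, ALDH9A1 had 22.2 CPM per kb and rank 5 in WT in place of rank 4, and with that of the longest transcript its rank was 5 as well. By canonical mRNA length, ALDH3A2 had 38.9 CPM per kb and rank 4 in place of rank 6, ALDH7A1 had 12.3 CPM per kb and rank 8 in place of rank 11, ALDH2 had 9.43 CPM per kb and rank 10 in place of rank 7, and ALDH1L1 had 4.7 CPM per kb and rank 12 in place of rank 13.

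**Figure D3:**
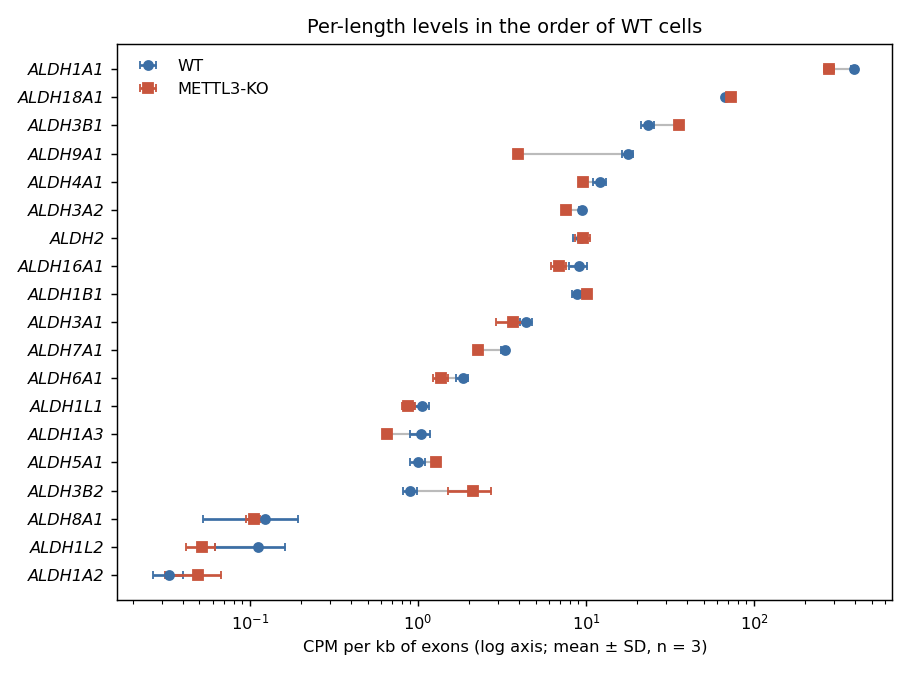
Level of the 19 ALDH genes as CPM per kb of exons (log axis; mean with SD, n = 3) in WT (circles) and METTL3-KO (squares), in the order of the WT level. ALDH9A1 goes from 17.7 to 3.91 CPM per kb, while ALDH1A1 stays first in both groups.

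Together the 10 members made 1985, 1924 and 1860 CPM in WT and 1591, 1560 and 1698 CPM in METTL3-KO. The groups did not overlap, with 1923 ± 62.4 CPM (SD, n = 3) in WT and 1616 ± 72.2 CPM (SD, n = 3) in METTL3-KO, or 84.1% of WT. Without ALDH1A1 the sums were 802 ± 27.1 CPM and 822 ± 23.3 CPM (SD, n = 3 each), so the lower total lay with ALDH1A1. Its share of the members' CPM went from 58.3 ± 0.898% to 49.1 ± 0.998% (SD, n = 3 each), that of ALDH3B1 from 8.03% to 14.6% and that of ALDH9A1 from 2.77% to 0.728%. On CPM per kb of exons over all 19 ALDH genes, ALDH1A1 made 69.8 ± 0.709% in WT and 62.3 ± 0.858% in METTL3-KO (SD, n = 3 each).

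METTL3 methylates adenosines in a short sequence context whose core can be written GGACT, and such sites are common near stop codons. On the sense strand of the canonical mRNAs of GRCh37 this word was present in all 10 members, at 0.733 words per kb over their summed length against 0.981 words per kb over 13529 tested genes, of which 91.3% had the word. ALDH9A1 had 1 such word in 2395 bases. Within 150 bases of the stop codon on either side, it was found in 1 of the 10 members, ALDH18A1, and in 30.9% of 12563 windows of the same 300 bases. Both ALDH18A1 sites are shown since they are the only ones of the 10 members in that window; capitals mark the word, and letters follow the minus strand.
ALDH18A1 site, chr10:97366638-97366658: gaccagtaGGACTtgagggac
ALDH18A1 site, chr10:97366629-97366649: gacttgagGGACTgcttacta

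The word is a match of letters only, and m6A was not measured in these libraries. The study also reports sequencing of m6A in WT and METTL3-knockout HCT116 cells, and its peaks were not used here. A relation of the word to the differences was not tested.

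Sequences of the study's reagents were also searched for in the ALDH genes. The guide RNA used for the knockout matched METTL3 exactly on chromosome 14, 21971548 to 21971567, and next to an NGG within the 19 ALDH genes and 2000 bases on either side it had no site with up to 3 mismatches, the fewest being 5, in ALDH1A2, and the best site of ALDH9A1 having 6. The study also lists siRNAs against METTL3, which the labels of these samples do not name, while the names of the deposited tables carry the unexplained SiM3. Their antisense strands are shown because the seeds, positions 2 to 8 in capitals, were searched for in the 3' UTRs.
METTL3-1 antisense: aTACTGACgtccaggtagc
METTL3-2 antisense: tAGTGAACatacttgcagg

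The reverse complement of the capitals is the word GTCAGTA for METTL3-1 and GTTCACT for METTL3-2. On the sense strand of canonical 3' UTRs, GTCAGTA was in 0 of the 10 members and in 8.03% of 13320 tested genes, and GTTCACT was in 4 of the 10 members and in 10.5% of these genes, at 0.199 and 0.0618 words per kb. The 4 sites are shown with GTTCACT in capitals, in the orientation of the mRNA.
ALDH9A1, chr1:165631591-165631619, minus strand: actttgtctctGTTCACTactgcgataga
ALDH1A3, chr15:101455857-101455885, plus strand: atttctatcacGTTCACTaacagcttatg
ALDH7A1, chr5:125879512-125879540, minus strand: agctgggcaaaGTTCACTttctctttgct
ALDH2, chr12:112253924-112253952, plus strand: catggtaatgaGTTCACTcaagagctggt

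The 3' UTRs of these genes measure 834, 1853, 3124 and 7957 bases, against a median of 1251 bases over the 13320 genes. Among the other ALDH genes, ALDH1L2 had both words and ALDH6A1 had GTCAGTA. Since the members were chosen by their values in the same comparison, the words are not set against the directions of change. A part of these words in the values was not tested.

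Genes that feed or use the same aldehydes were taken from lists of pathway partners, and their differences were tested over all genes. The lists were chosen with earlier results of these data known. Their counts and adjusted p-values are therefore a description, and nothing about a pathway is read from them. Alcohol dehydrogenases, which make aldehydes from alcohols, had 4 tested genes, of which 1 was lower and 0 higher (median log2 fold change 0.02), next to the 13.2% and 13.3% of all genes. The lower gene was ADH6, with 11.6 ± 0.922 CPM in WT and 8.22 ± 0.772 CPM in METTL3-KO (SD, n = 3 each; log2 fold change -0.50, SE 0.112, edgeR adjusted p = 0.00616). ADH1A, ADH1B and ADH7 had too few counts to test.

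Aldo-keto reductases, which reduce aldehydes to alcohols, had 3 genes lower and 2 higher of 10 tested, with a median of 0.10. AKR1B10, a retinal reductase, was at 77.9 ± 8.92 CPM in WT and 45.7 ± 2.68 CPM in METTL3-KO (SD, n = 3 each; log2 fold change -0.77, SE 0.0926, edgeR adjusted p = 9.83e-05). AKR1C1 (log2 fold change -0.75, edgeR adjusted p = 0.00036) and AKR1C2 (-0.84, 0.0051) were lower and are near-identical copies whose reads may be split. AKR7A3, which reduces aflatoxin dialdehyde, was higher (log2 fold change 0.64, edgeR adjusted p = 0.000699), and so was AKR1C4, named outside the rule after its value was seen (1.09, 0.0145). AKR1C4 had only 9 to 33 counts a sample. It did not pass with the replicate block, without WT replicate 2 or without METTL3-KO replicate 2.

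Genes of retinoid oxidation and retinoic acid binding, which surround the ALDH1A step, had 8 genes higher and 1 lower of 18 tested, with a median log2 fold change of 0.37. DHRS9, a retinol dehydrogenase, showed the largest of these differences, at 0.947, 1.11 and 0.610 CPM in WT and 12.3, 13.2 and 14.8 CPM in METTL3-KO (log2 fold change 3.90, SE 0.176, edgeR adjusted p = 1.7e-07). The others named by smallest p were STRA6, a receptor for retinol uptake (log2 fold change 1.10, edgeR adjusted p = 2.76e-05), RARG, a retinoic acid receptor (0.75, 3.36e-05), and RDH11, a retinal reductase (0.58, 0.000161). RDH10, RARA, RDH5 and CYP26A1 were also higher and CYP26B1 lower. RDH5 (edgeR adjusted p = 0.0453) did not pass with DESeq2, the replicate block, or the length and GC correction. It also missed the rule without WT replicate 1 or 2, or METTL3-KO replicate 1 or 2. CYP26B1, at most at 1.89 CPM in any sample, did not pass without WT replicate 1 or 2, or METTL3-KO replicate 2. CRABP1 and RXRG were at 0 in all 6 libraries.

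Among carnitine and polyamine genes, the partners of ALDH9A1, 3 were lower and 5 higher of 16 tested, with a median of 0.08. All 5 that passed on the higher side and all 3 on the lower side act on amines: MAOB, a monoamine oxidase, rose from 7.76 ± 0.446 to 23.3 ± 1.12 CPM (SD, n = 3 each; log2 fold change 1.58, edgeR adjusted p = 1.01e-06). ODC1, the first enzyme of polyamine synthesis, fell (log2 fold change -0.52, edgeR adjusted p = 0.000175), AOC1, a diamine oxidase, rose (0.70, 0.000335), and ABAT, the GABA transaminase, fell (-0.93, 0.000464). MAOA, SMOX and SAT1 were the other higher genes and PAOX the other lower one. PAOX did not pass with DESeq2 or with the replicate block, with or without the length and GC correction. It also missed the rule without WT replicate 1 or 2, and without any single METTL3-KO sample. AOC3, an amine oxidase of the same list, did not pass (log2 fold change 0.11, SE 0.249, edgeR adjusted p = 0.775).

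The carnitine genes did not pass: TMLHE, which starts carnitine synthesis, had a log2 fold change of 0.03 (SE 0.102), the carnitine carrier SLC22A5 of -0.03 (SE 0.0866) and CPT1A of 0.04 (SE 0.0665). BBOX1, which acts directly after ALDH9A1, was at 0 in all WT samples and at 0.0332 to 0.298 CPM in METTL3-KO, and did not pass (edgeR adjusted p = 0.0597). On these few counts it passed as higher with no filter beyond 1 count, with the length and GC correction, and without METTL3-KO replicate 1. CRAT (log2 fold change -0.04, SE 0.0845) passed as lower with replicate 3 of both groups left out.

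Of the proline and ornithine genes, the partners of ALDH18A1 and ALDH4A1, 0 were higher among those tested. ARG2, an arginase, had a log2 fold change of -0.45 (edgeR adjusted p = 0.0495) and passed under only 1 of 14 alternatives, while PYCR1, which makes proline from pyrroline carboxylate, stood at 0.02 and did not pass.

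Lysine and choline breakdown genes, the partners of ALDH7A1, had 2 lower and 2 higher of 8 tested, with a median of -0.27. CHDH, which makes betaine aldehyde from choline, was at 41.4 ± 1.74 CPM in WT and 29.7 ± 3.15 CPM in METTL3-KO (SD, n = 3 each; log2 fold change -0.48, edgeR adjusted p = 0.00226), and AADAT, which acts on aminoadipate, was lower as well (-0.70, 0.0154). CHDH passed under all 14 alternatives and AADAT under 11 of 14. DMGDH (2.0, edgeR adjusted p = 0.0415) and PIPOX (0.82, edgeR adjusted p = 0.0429) were at most at 1.23 and 1.59 CPM in any sample, the groups of DMGDH overlapped, and they passed under 8 and 6 of 14 alternatives.

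**Figure D4:**
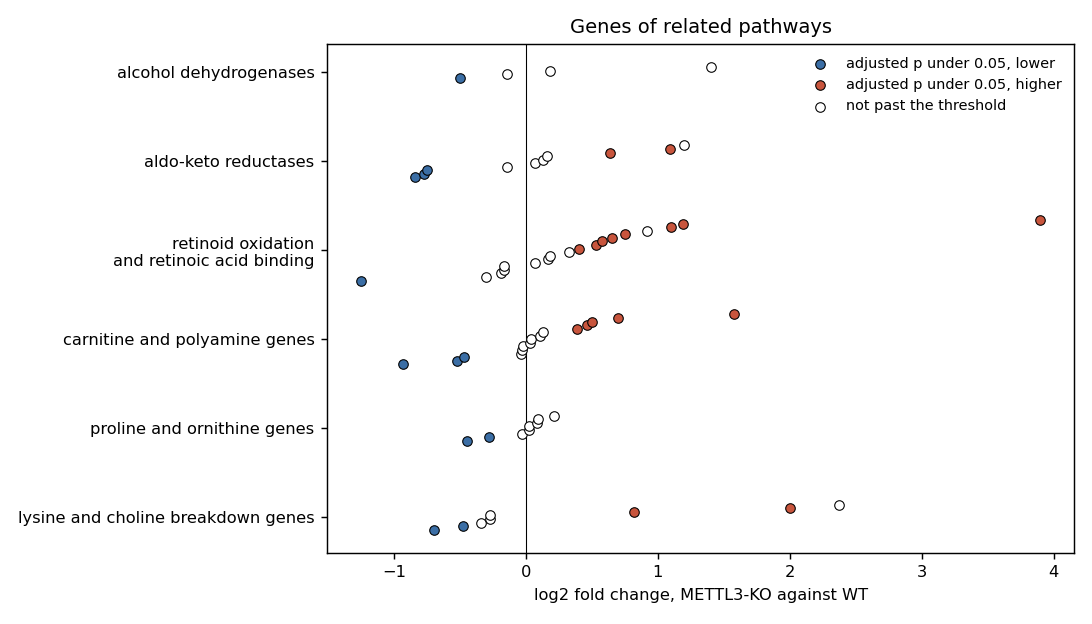
Log2 fold change of METTL3-KO against WT for the tested genes of 6 lists of pathway partners, coloured by the edgeR adjusted p (under 0.05 and lower, under 0.05 and higher, or not past it); genes with 0 counts in all samples of a group are left out. DHRS9 at 3.90 lies far to the right in the retinoid list, where 8 genes were higher and 1 lower.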

How the data were processed

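RNA-seq read counts of 3 WT and 3 METTL3-KO HCT116 samples were analysed. Paired-end reads had been aligned by the authors with TopHat 2.0.11 against hg19, and they deposited raw counts per gene symbol from HTSeq in union mode, 1 table per sample. Reads assigned to no feature were 6.03 to 9.08% and stayed out of library sizes. Genes with at least 5 counts summed over either group were kept (22452 of 56638). METTL3-KO was compared with WT in edgeR 4.0.16 (R 4.3.3; TMM, two-sided quasi-likelihood test, Benjamini-Hochberg over all genes tested). The study's tool was DESeq2, run here (1.42.0) as an alternative beside RLE factors, other count filters, a replicate block, a length and GC correction, and fits without single samples or without replicate 3 of both groups. The fit was also run on simulated counts, drawn independently for each sample. These held neither the split of replicate 3 nor the trend with length, so that run cannot judge how the fit handles them. Same-numbered samples did not deviate together (correlations -0.192 to -0.0350). Gene positions, lengths and sequences came from a GENCODE annotation of GRCh37, which 33519 symbols matched, and no protein sequences were used here. Members and gene lists were chosen with earlier results of these data known. All 19 ALDH genes, up to 4 genes of smallest adjusted p per partner list, METTL3 and the 5 genes nearest to ALDH9A1 were named by rule, and other genes of a list after their values were seen. A result of the proline and ornithine list is not reported here.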

Additional observations from a re-analysis of the deposited data

How the results depend on the processing

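The members kept their side of the rule under most of the 14 alternatives. ALDH9A1, ALDH1A1, ALDH1A3, ALDH7A1 and ALDH3B1 passed in all 14 and ALDH3A2 in 13, missing it with the replicate block, while ALDH3A1 and ALDH18A1 passed in 2 and ALDH1B1 and ALDH2 in 1. Members on the higher side were 3 with the length and GC correction, where ALDH18A1 and ALDH1B1 joined ALDH3B1, and 2 with replicate 3 of both groups left out. Over all genes tested, that correction gave 3713 lower and 3731 higher, in place of 2959 and 2986. With the replicate block 1719 genes were lower and 1810 higher, and with replicate 3 of both groups left out 4823 were lower and 4555 higher. Same-numbered samples share only a number, and the block took the lower genes of the pathway lists, ALDH genes included, from 16 to 10. Leaving out single samples gave 8 to 20 of them: 10 without WT replicate 1 or WT replicate 2, and 8 without METTL3-KO replicate 1 or METTL3-KO replicate 2. With canonical mRNA lengths, an alternative chosen after seeing the data, ALDH1A1 made 66.3% of the WT family level in place of 69.8%. The cause of these shifts was not tested. Lengths and GC content were known for 71% of the genes tested, so the correction is void as a check over all genes, and all 19 ALDH genes had them. Depth limits ALDH1A2, ALDH8A1 and ALDH1L2, with at most 34 counts a sample.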
